A study of Sus scrofa with 21 samples.

Results

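Regulated exocytosis was examined here through 9 genes, CADPS, CADPS2, RAB27A, RAB27B, RAB3A, STX2, SNAP25, SNAP23 and VAMP2, in the testis of pigs. They are 9 of the 25880 Ensembl genes counted, and were taken by symbol, with the identifier of CADPS given by hand. All 9 had reads in each of the 21 libraries, and they were followed as raw counts and as CPM (counts scaled to library size, with TMM factors in edgeR), also where a gene lay below 1 CPM. The genes had been picked from the contrasts between Landrace boars, so their values there are described without a test. They were tested only in the Duroc boars and between the breeds.

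The libraries came from testis tissue of purebred artificial insemination boars, 13 Landrace and 8 Duroc, with 1 library per boar. The tissue was taken at slaughter, after the hyperactive motility of the sperm, a vigorous and asymmetric swimming pattern, had been measured by computer-assisted semen analysis. No boar was treated, and the age of each boar was not used here. In contrast (i), Landrace boars with high hyperactivity at day 0 (High_d0, boars L5, L6, L7 and L8) were compared with boars of low hyperactivity (Low_d0, L1, L2, L3 and L4). In contrast (iii), Landrace boars whose hyperactivity changed much over 96 h of storage at 18 °C (High_d4_0, L7, L13 and L15) were compared with boars in which it changed little (Low_d4_0, L2, L9, L10 and L12), so that L2 and L7 serve in both contrasts. In contrast (ii), the deposited labels place the Duroc boars D1, D2, D3, D4 and D5 in the group High and D6, D7 and D9 in the group Low. The study numbers its Duroc boars in another way than the labels do. The read totals of the libraries labelled High nevertheless follow the read depths of boars in the high group of the study, and those of the libraries labelled Low the depths in its low group, so that the numbers differ and the groups do not. All directions below follow the deposited labels.

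The 25880 genes received 41358671 to 125576407 reads per library, with a median of 58530621. Whole testis holds many cell types, and in such bulk tissue a change in the share of a cell type and a change in RNA per cell cannot be told apart. Summed over 6 spermatid markers of the 7 listed, the level ranged from 4626 to 10015 CPM, and over 5 Leydig cell markers of the 6 listed from 458 CPM in L8 to 4451 CPM in L6. Germ cell, Sertoli cell and Leydig cell markers were read in every library, although NANOS2, a marker of spermatogonial stem cells, had no read in any of them. Boar L13 stood apart, with the highest summed Sertoli cell level, 493 CPM against at most 315 CPM in the others, the highest macrophage level, 219 CPM against at most 131 CPM, and the lowest spermatid level. Boar L8 had the lowest Leydig, endothelial and peritubular myoid cell levels and the highest spermatocyte level, 1559 CPM.

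Secretory vesicles are released when they fuse with the plasma membrane after a signal, usually a rise in calcium. Small GTPases of the Rab3 and Rab27 families bring the vesicle to the membrane and dock it, priming factors such as the CAPS proteins ready it, and SNARE proteins of the vesicle and of the membrane then zip together and fuse both. In sperm, the acrosome reaction, in which the acrosome releases its enzymes at the egg, is an exocytosis of this kind, while hormone and factor release by the somatic cells of the testis uses related proteins.

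CADPS, or CAPS1, primes dense-core vesicles and is best known from neurons and endocrine cells. In the RefSeq annotation of Sscrofa11.1, CADPS (ENSSSCG00000011489) lies on chromosome 13 from 43979694 to 44482985. Its paralog CADPS2 (ENSSSCG00000016611) lies on chromosome 18 from 24372547 to 24867287. Of the 9 genes, CADPS had the widest range of CPM, from 0.100 CPM in L2, where it had 8 reads, to 6.26 CPM in D6, where it had 321 reads, a 62.3-fold difference between boars. Without L2 the lowest boar was L9 with 0.362 CPM, and the difference was 17.3-fold. Its median was 1.42 CPM, and 13 of the 21 boars reached 1 CPM. CADPS2 varied far less, with a median of 16.1 CPM and a 2.27-fold difference between its lowest boar, L2 with 13.6 CPM, and its highest, L8 with 30.8 CPM. The number of CADPS2 reads per CADPS read, which compares boars and not the levels of both genes, ran from 3.31 in D5 to 135 in L2.

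The GTPases RAB27A and RAB27B dock secretory vesicles. RAB27A (ENSSSCG00000004612) lies on chromosome 1 from 116532816 to 116606477, and RAB27B (ENSSSCG00000035243) lies on the same chromosome from 104241500 to 104418721. RAB27B was read in all boars at 5.96 CPM or more, with a median of 11.0 CPM, and L6 with 44.1 CPM and L13 with 29.0 CPM were the highest. RAB27A had a median of 1.22 CPM, and CPM does not account for gene length. Its highest level, 6.90 CPM in L13, was well above the next, 2.09 CPM in L6. The number of RAB27B reads per RAB27A read ran from 4.20 in L13 to 22.7 in D6. Reads that both paralogs could share were not separated here, and their part was not tested.

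RAB3A (ENSSSCG00000013897, chromosome 2 from 59603090 to 59609773), a GTPase of synaptic vesicles that is also found at the acrosome, was read at 0.510 to 1.29 CPM, from 30 to 99 reads per boar. STX2 (ENSSSCG00000009747, chromosome 14 from 24341473 to 24380536), a syntaxin of the target membrane, ranged from 36.1 to 63.2 CPM. SNAP25 (ENSSSCG00000026985, chromosome 17 from 19096115 to 19227580) and SNAP23 (ENSSSCG00000038735, chromosome 1 from 128849465 to 128888972) give the fusion complex a pair of helices each, SNAP25 mainly in neurons and SNAP23 in most tissues. SNAP25 ranged from 0.897 to 4.21 CPM, with L13 at the top, and SNAP23 from 97.6 to 154 CPM. VAMP2 (ENSSSCG00000034868, chromosome 12 from 53378407 to 53382243), the SNARE of the vesicle, ranged from 15.7 to 33.6 CPM.

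The log2 CPM of CADPS had an SD of 1.32 over the 21 boars, and that of RAB27A 0.81 and RAB27B 0.69. The SD of log2 CPM was 0.52 for SNAP25, 0.37 for RAB3A, 0.30 for VAMP2, 0.28 for CADPS2, 0.24 for STX2 and 0.17 for SNAP23. The spread of RAB27B was wider among the Landrace boars, with an SD of 0.82 on the log2 CPM scale, than among the Duroc boars, with 0.39. The difference in spread was not tested.

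The order of the 6 label groups was taken from their mean CPM, with L2 and L7 counted in both of their groups. For CADPS, the means were 2.86 CPM in the Duroc boars labelled Low, 2.86 CPM in High_d4_0, 2.10 CPM in the Duroc boars labelled High, 2.09 CPM in High_d0, 0.686 CPM in Low_d4_0 and 0.566 CPM in Low_d0. The only gap between neighbours wider than the larger of their SDs was that between High_d0 and Low_d4_0, 1.40 CPM. For RAB27B, the order was High_d0 with 21.6 CPM, High_d4_0 0.611 CPM lower, the Duroc boars labelled High another 9.93 CPM lower, the Duroc boars labelled Low with 10.6 CPM, Low_d0 with 10.1 CPM and Low_d4_0 with 8.50 CPM. Here only that gap of 9.93 CPM exceeded the larger SD. Single boars set parts of both orders. Without D6, the mean of CADPS in the Duroc boars labelled Low was 1.16 CPM, below High_d0, and without L6 the mean of RAB27B in High_d0 was 14.1 CPM, below High_d4_0.

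**Figure D1:**
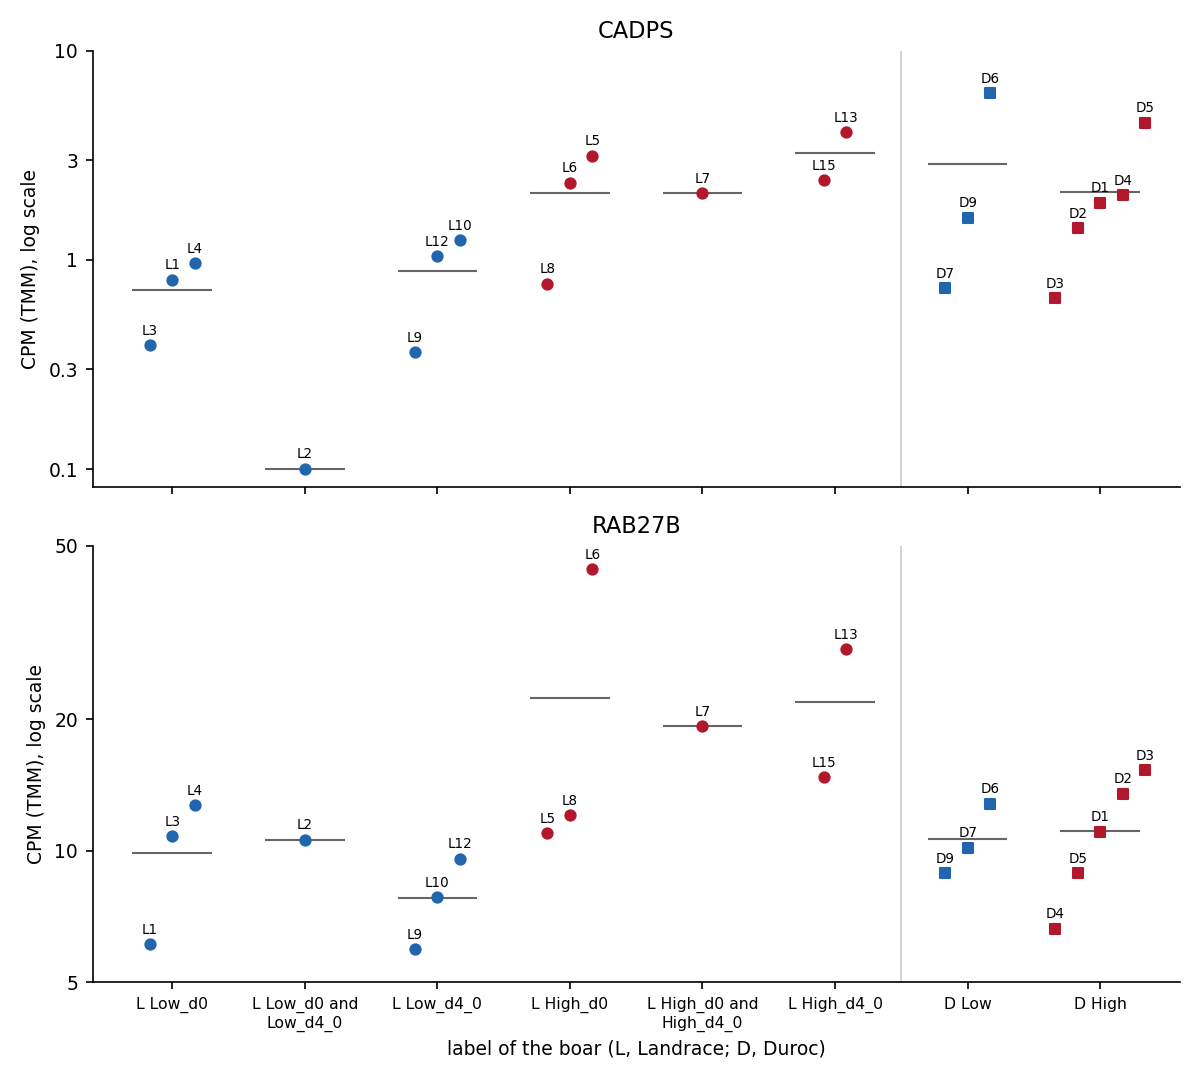
CPM (TMM scaled, log axis) of CADPS (top) and RAB27B (bottom) in each of the 21 boars by label, with red for high and blue for low labels, circles for Landrace, squares for Duroc and a grey line at the mean of the boars shown. CADPS was lowest in L2 with 0.100 CPM and highest in D6 with 6.26 CPM, and RAB27B was highest in L6 with 44.1 CPM and L13 with 29.0 CPM.

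Contrast (i) asked which testis genes go with hyperactivity at the day of ejaculation. CADPS was read at 3.15 CPM in L5, 2.34 CPM in L6, 2.09 CPM in L7 and 0.771 CPM in L8, against 0.806 CPM in L1, 0.100 CPM in L2, 0.392 CPM in L3 and 0.966 CPM in L4. Thus 3 of the 4 high boars lay above all low boars, and L8 lay among them. The log2 fold change, high over low, was 1.92 with a standard error (SE) of 0.60, and stayed between 1.51 and 2.27 when each boar was left out in turn. In raw counts these were 63 to 194 reads in the high group and 8 to 57 reads in the low group, and with only 3 boars at 1 CPM the gene was below the limit on low counts that the other genes had to pass.

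For RAB27B, the high boars had 11.0 CPM in L5, 44.1 CPM in L6, 19.3 CPM in L7 and 12.1 CPM in L8, and the low boars 6.12 CPM in L1, 10.6 CPM in L2, 10.8 CPM in L3 and 12.7 CPM in L4. The groups overlapped, since L4 lay above L5 and L8. The log2 fold change of RAB27B was 1.10 (SE 0.40), and 0.51 without L6, the boar with the highest level.

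The paralogs followed to a lesser degree. CADPS2 was higher in each high boar, at 18.1, 19.2, 20.1 and 30.8 CPM in L5, L6, L7 and L8, than in any low boar, where it ran from 13.6 to 15.1 CPM, and its log2 fold change was 0.61 (SE 0.18), or 0.43 without L8. RAB27A overlapped between the groups, with 0.656 to 2.09 CPM in the high and 0.586 to 1.62 CPM in the low boars and a log2 fold change of 0.49 (SE 0.40).

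RAB3A took the opposite direction. It was read at 0.624, 0.715, 0.592 and 0.820 CPM in L5, L6, L7 and L8 and at 1.08, 0.942, 1.18 and 1.03 CPM in L1, L2, L3 and L4. No high boar reached the lowest low boar, and the log2 fold change was −0.61 (SE 0.27), although these values rest on 38 to 67 reads in the high and 59 to 99 reads in the low boars.

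Among the SNAREs, STX2 had 57.5 ± 6.54 CPM (SD, n = 4) in high boars and 42.3 ± 7.18 CPM (SD, n = 4) in low boars, and SNAP23 had 136 ± 12.4 CPM (SD, n = 4) and 110 ± 12.1 CPM (SD, n = 4). In both genes the highest low boar, L4, lay above the lowest high boar. Their log2 fold changes were 0.45 (SE 0.15) for STX2 and 0.32 (SE 0.12) for SNAP23. SNAP25, with a log2 fold change of 0.41 (SE 0.35), and VAMP2, with −0.19 (SE 0.17), differed by about their SE, and their groups overlapped. Without L8 these were 0.21 and −0.06.

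Of the 9 genes, CADPS2 and RAB3A, or 2 of 9, thus had groups that did not overlap. Over the 12981 genes tested in contrast (i), 28.3% did not overlap, and 20.7% passed the quasi-likelihood test of edgeR at an adjusted p of 0.05. These were 2682 genes, and 1 gene passed without L3 or without L6, 966 without L1, 1229 without L8 and 1482 without L4. Since the 9 genes were picked with this contrast in view, nothing is read from their count. Their median log2 fold change was 0.45, against 0.035 over all genes tested, and for the same reason nothing is read from this difference. Markers of other cells moved as well, as the summed level of 6 spermatocyte markers was 984 to 1559 CPM in the high and 708 to 976 CPM in the low boars, and that of 6 peritubular myoid and smooth muscle markers was 20.5 to 63.3 CPM in the high and 54.0 to 125 CPM in the low boars. For the nerve and neuroendocrine list, of which all 6 genes were matched, the sums were 6.91 to 9.65 CPM and 9.70 to 12.6 CPM. By edgeR's test, 1 of the 6 spermatocyte markers passed, as higher, and 3 of the 6 spermatid markers passed as lower. These 3 were PRM1, with a log2 fold change of −0.70 (SE 0.20), TNP2, with −0.73 (SE 0.20), and TSSK6, with −1.41 (SE 0.27). ACRV1, with 0.46 (SE 0.16), SPACA1, with 0.39 (SE 0.15), and TNP1, with 0.21 (SE 0.18), were higher and did not pass. The part of these cells in the values of the 9 genes was not tested.

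**Figure D2:**
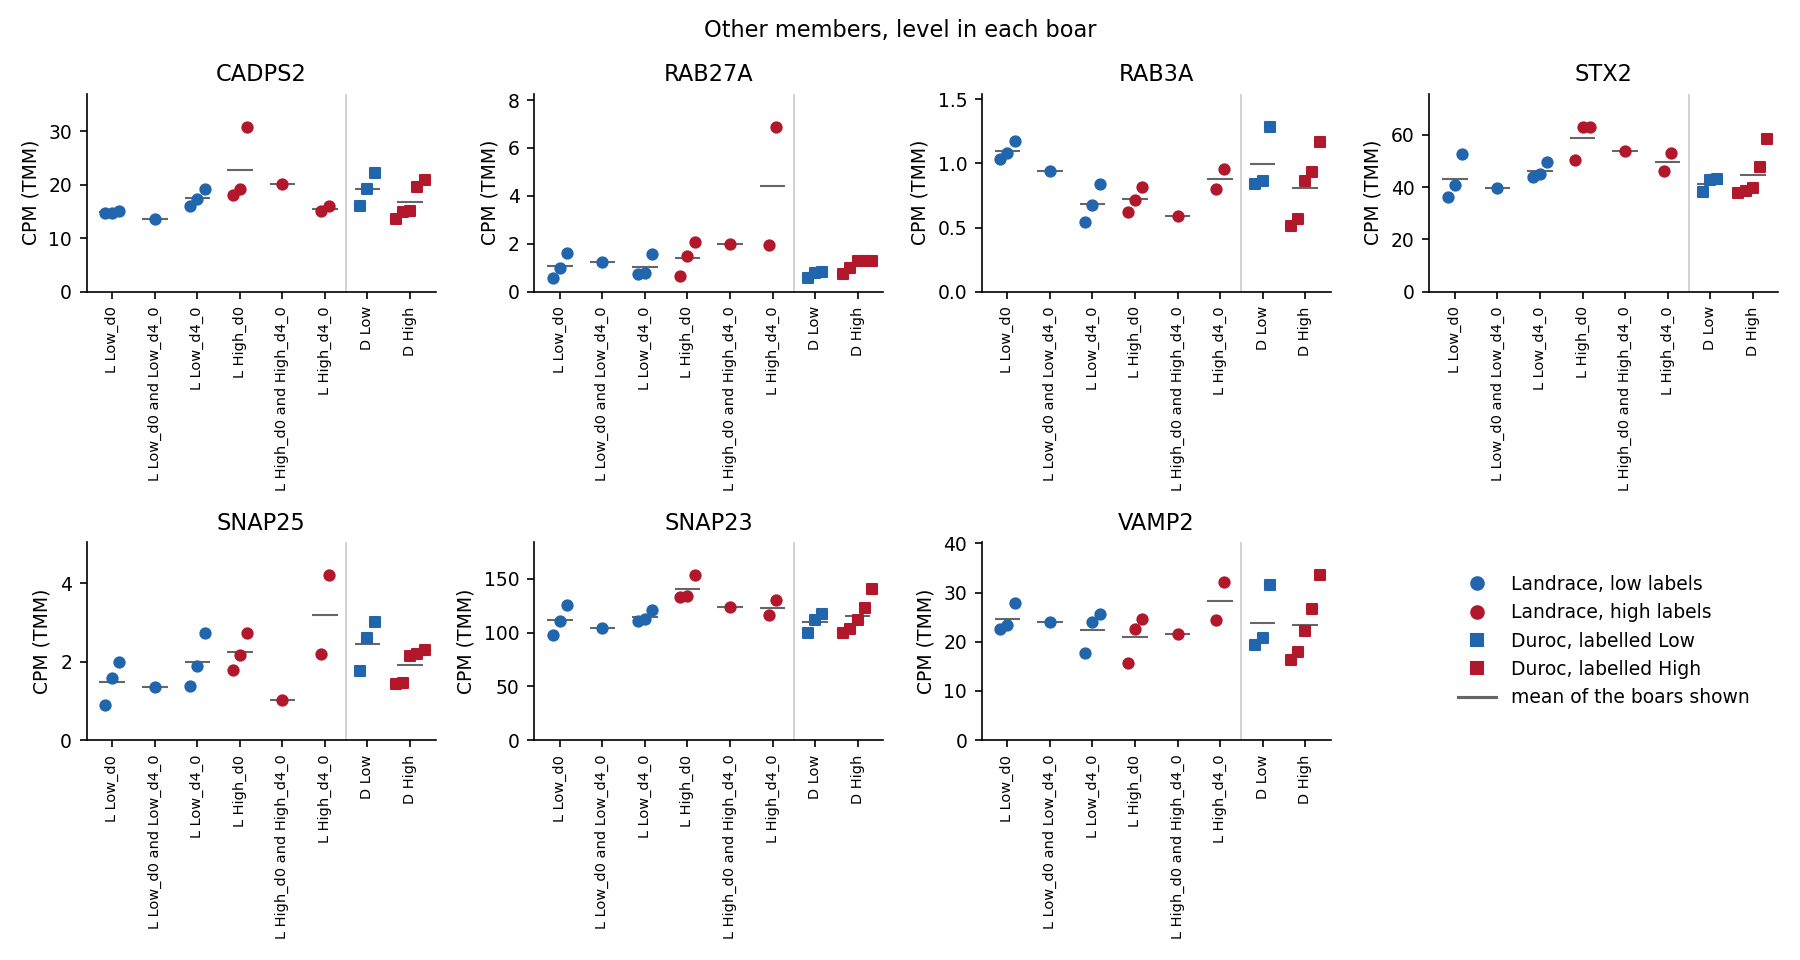
CPM (TMM scaled, linear axes from 0) of the other 7 genes in each boar by label, with the same colours and symbols and a grey line at the mean of the boars shown. CADPS2 was higher in each of the boars labelled High_d0 (18.1 to 30.8 CPM) than in the boars labelled Low_d0 (13.6 to 15.1 CPM), and RAB27A was highest in L13 with 6.90 CPM.

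Contrast (iii) asked which genes go with the change in hyperactivity during storage. CADPS was read at 2.09 CPM in L7, 4.08 CPM in L13 and 2.41 CPM in L15, and at 0.100 CPM in L2, 0.362 CPM in L9, 1.24 CPM in L10 and 1.04 CPM in L12. All 3 high boars lay above all 4 low boars. Its log2 fold change was 2.08 (SE 0.63), and 1.71 without L2, the boar with 8 reads. Without both boars shared with contrast (i), L2 and L7, it was 1.87.

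RAB27B was read at 19.3, 29.0 and 14.7 CPM in L7, L13 and L15, and at 10.6, 5.96, 7.82 and 9.60 CPM in L2, L9, L10 and L12. The groups did not overlap, and the log2 fold change was 1.31 (SE 0.26). It was 1.02 without L13 and 1.48 without L2 and L7.

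RAB27A did not overlap either, with 1.97, 6.90 and 1.96 CPM in L7, L13 and L15 against 1.22, 0.761, 1.55 and 0.754 CPM in L2, L9, L10 and L12. Its log2 fold change of 1.74 (SE 0.48) rested in large part on L13 and was 0.89 (SE 0.36) without that boar. Leaving out L13 also took the log2 fold change of SNAP25 from 0.43 (SE 0.44) to −0.17.

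The remaining genes lay close together in both groups. CADPS2 had 17.0 ± 2.73 CPM (SD, n = 3) in the high boars and 16.6 ± 2.35 CPM (SD, n = 4) in the low boars, with a log2 fold change of 0.04 (SE 0.20), which was −0.20 without L2 and L7. RAB3A had a log2 fold change of 0.05 (SE 0.32), STX2 0.20 (SE 0.14), SNAP23 0.14 (SE 0.12) and VAMP2 0.19 (SE 0.19), all with overlapping groups. Without L13, RAB3A turned to −0.10 and VAMP2 was at 0.03. The CADPS2 and RAB3A groups that did not overlap at day 0 therefore overlapped here, while both contrasts share L2 and L7 and the difference between them was not tested.

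The 3 genes without overlap, CADPS, RAB27A and RAB27B, make 3 of 9, where 16.2% of the 12825 genes tested did not overlap in contrast (iii), and again nothing is read from this count because the genes were picked on this contrast. By edgeR's quasi-likelihood test no gene of the 12825 reached an adjusted p of 0.05. There were 2538 genes, or 19.8%, with an unadjusted p under 0.05, and the likelihood ratio test called 66 genes and DESeq2 116. The summed level of mast cell markers, of which 2 of 5 were matched, was 3.97 to 7.65 CPM in the high and 1.64 to 3.33 CPM in the low boars. Sertoli cell markers, all 7 matched, summed to 204 to 493 CPM in the high boars, with L13 at the top, and to 204 to 234 CPM in the low boars. The nerve and neuroendocrine sums were 7.84 to 8.50 CPM and 8.59 to 10.3 CPM. The sum of the 6 spermatid markers was 4626 CPM in L13 and 4900 CPM in L15, below the 7318 to 9849 CPM of the low boars, and 8161 CPM in L7. Of these markers, 4 had a negative and 2 a positive log2 fold change. PRM1 had −1.05 (SE 0.31), TNP2 −0.81 (SE 0.31) and TSSK6 −1.29 (SE 0.40). TNP1, which averaged 4246 CPM in the high and 5570 CPM in the low boars, had −0.39 (SE 0.24). ACRV1 had 0.17 (SE 0.12) and SPACA1 0.12 (SE 0.13), and none of the 6 markers passed the adjustment. L13 and L15 were also the boars with the highest CADPS of this contrast. The part of these cells in the levels of CADPS, RAB27A and RAB27B was not tested.

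**Figure D3:**
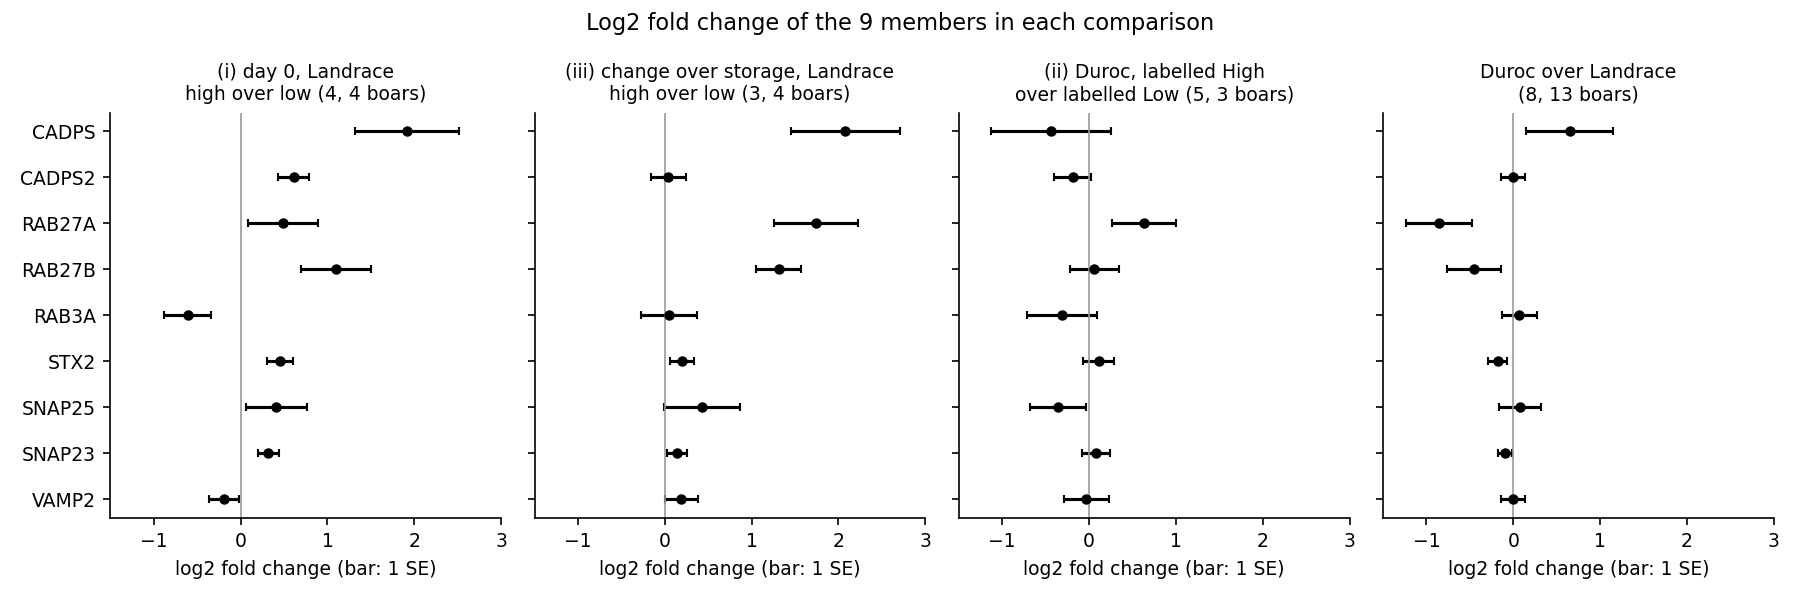
Log2 fold change (points) with 1 SE (bars) of the 9 genes in contrast (i), contrast (iii), contrast (ii) and Duroc over Landrace, each panel on the same axis. CADPS stood at 1.92 and 2.08 in the Landrace contrasts, at −0.44 in the Duroc contrast and at 0.65 between the breeds.

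The Duroc boars of contrast (ii) had no part in the choice of the genes. CADPS was read at 1.88 CPM in D1, 1.42 CPM in D2, 0.655 CPM in D3, 2.04 CPM in D4 and 4.53 CPM in D5, all labelled High, and at 6.26 CPM in D6, 0.735 CPM in D7 and 1.59 CPM in D9, labelled Low. The groups overlapped throughout, and the boars D5 and D6, of different labels, were the highest. The log2 fold change, labelled High over labelled Low, was −0.44 (SE 0.69, adjusted p = 0.999997 from edgeR), with an exact two-sided permutation p of 0.821 over all 56 assignments of the boars. Without D6 it turned to 0.85 (SE 0.68).

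RAB27B was read at 11.0, 13.5, 15.3, 6.63 and 8.88 CPM in D1 to D5 and at 12.8, 10.2 and 8.88 CPM in D6, D7 and D9. The labelled Low boars lay inside the range of the labelled High boars. Its log2 fold change was 0.06 (SE 0.28, exact permutation p = 0.982).

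RAB27A had the smallest permutation p of the 9. It was read at 1.26, 0.717, 0.990, 1.26 and 1.29 CPM in D1 to D5 and at 0.565, 0.767 and 0.805 CPM in D6, D7 and D9, so that 4 of the 5 boars labelled High were above all boars labelled Low, and D2 was not. The log2 fold change was 0.63 (SE 0.37, adjusted p = 0.999997 from edgeR), and the exact permutation p was 0.0714, where the smallest that 5 boars against 3 allow is 0.0179.

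Among the other 6 genes, the log2 fold changes ran from −0.36 (SE 0.32) for SNAP25 to 0.11 (SE 0.18) for STX2, and the exact permutation p was 0.214 or more. None of the 9 genes passed or had groups without overlap, where 1.39% of the 13045 genes tested did not overlap, and no gene of all those tested passed. With an unadjusted p under 0.05 there were 158 genes, or 1.21%. With SEs of 0.28 for RAB27B and 0.69 for CADPS, a difference as large as those in the Landrace contrasts was resolved worse for CADPS than for RAB27B. Whether the contrasts differ between the breeds was not tested.

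Between the breeds, none of the 9 genes passed either, where 378 of 13127 genes, or 2.88%, did by edgeR's quasi-likelihood test. CADPS ranged from 0.655 to 6.26 CPM in the 8 Duroc boars, with a median of 1.73 CPM, and from 0.100 to 4.08 CPM in the 13 Landrace boars, with a median of 1.04 CPM. As a log2 fold change, Duroc over Landrace, this was 0.65 (SE 0.50, adjusted p = 0.793 from edgeR), and 0.27 without D6. The breeds overlapped widely.

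RAB27A was at most 1.29 CPM in the Duroc boars, where its median was 0.898 CPM, and ranged from 0.586 to 6.90 CPM in the Landrace boars, with a median of 1.47 CPM. Its log2 fold change of −0.86 (SE 0.38, adjusted p = 0.327 from edgeR, permutation p = 0.130) was −0.46 without L13. For RAB27B, the Duroc boars ranged from 6.63 to 15.3 CPM, with a median of 10.6 CPM, and the Landrace boars from 5.96 to 44.1 CPM, with a median of 11.0 CPM. The medians were close, and 4 Landrace boars, L6, L13, L7 and L15, of which L15 lay just below the highest Duroc boar, made up the upper end.

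The log2 fold change of RAB27B between the breeds was −0.45 (SE 0.31, adjusted p = 0.715 from edgeR), and −0.19 without L6. The other 6 genes had log2 fold changes between −0.18 (SE 0.11) for STX2 and 0.08 (SE 0.24) for SNAP25. No gene of the 9 separated the breeds without overlap, where 0.297% of all genes did. The boars of each breed had been picked for extreme hyperactivity by different criteria, so breed and selection cannot be told apart.

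The other genes of the exocytosis machinery give the surroundings of the 9. Of 87 further genes listed by role, 79 were matched by symbol. In contrast (i), 60 of these were tested and 16 passed by edgeR's quasi-likelihood test, or 26.7%, near the 20.7% of all genes, with 3 higher and 13 lower in the high group. Over all genes, 4.82% were higher and 15.8% lower, so that 76.7% of the genes that passed were lower, or 62.8% with DESeq2. The median log2 fold change of the 60 genes was −0.06, against 0.035 over all genes tested. The count of 16 fell to 0 without L3 or without L6, to 8 without L1 and to 9 without L8, and was 20 with the likelihood ratio test and 22 with DESeq2. None of the 16 genes changed direction when a boar was left out or another setting was used.

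The UNC13 family shares the priming step with CADPS. In contrast (i), 2 of its 4 tested genes passed as lower in the high group, where 15.8% of all genes did. UNC13B, which averaged 52.5 CPM in the high and 51.5 CPM in the low boars, had a log2 fold change of 0.04 (SE 0.12). UNC13C had 0.37 (SE 0.30), and neither of these passed. UNC13D, which primes granules in blood cells and was below the level of 1.14 CPM in all high boars, averaged 0.651 ± 0.328 CPM (SD, n = 4) in the high and 2.40 ± 1.02 CPM (SD, n = 4) in the boars of the low group, with a log2 fold change of −1.87 (SE 0.41, adjusted p = 0.0209 from edgeR). BAIAP3, a relative with a role in dense-core vesicle traffic, averaged 1.07 ± 0.391 CPM (SD, n = 4) and 3.39 ± 1.03 CPM (SD, n = 4), a log2 fold change of −1.64 (SE 0.35, adjusted p = 0.0208 from edgeR). In both genes the direction was opposite to that of CADPS in the same boars.

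Of the other Rab3 GTPases and the regulators of Rab3 and Rab27, 3 of 9 tested genes passed as lower and none as higher in contrast (i). Over all genes, 15.8% passed as lower and 4.82% as higher. By sign, 3 of the 9 were higher and 6 lower. RAB3C, with a log2 fold change of 0.43 (SE 0.20), and RAB3GAP1, with 0.40 (SE 0.15), were higher and did not pass. RAB3IL1, an exchange factor for RAB3A, went from 60.5 ± 4.80 CPM (SD, n = 4) in the low to 22.5 ± 9.76 CPM (SD, n = 4) in the high boars, a log2 fold change of −1.41 (SE 0.27, adjusted p = 0.0208 from edgeR). MADD, an exchange factor for Rab3 and Rab27 proteins, fell by 1.26 on the log2 scale (SE 0.30), and TBC1D10A, a GTPase activating protein for RAB27A, fell by 1.29 (SE 0.30). Of the effectors, which bind the GTPases on the vesicle, 3 of 11 passed as lower, and 7 had a positive log2 fold change. RPH3AL fell by 0.86 (SE 0.26), RIMS3 by 1.03 (SE 0.27) and RIMS4 by 1.28 (SE 0.34). The synaptotagmin-like effectors of RAB27 were among the 8 effectors that did not pass.

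None of the 6 other SNAREs tested passed in contrast (i). Of 11 SNARE partners, STXBP3, a binding partner of syntaxins, rose by a log2 fold change of 0.38 (SE 0.12), and NAPA, which takes used SNARE complexes apart together with NSF, fell by 1.06 (SE 0.30). Of 11 calcium sensors, SYT2 fell by 1.21 (SE 0.24), SYT9 by 0.99 (SE 0.21) and DYSF, which serves membrane repair, by 1.07 (SE 0.35), the closest of the 16 genes to the threshold. Of the 8 genes tested of the exocyst, which tethers vesicles to the plasma membrane, EXOC5 rose with a log2 fold change of 0.45 (SE 0.12) and EXOC6 with 0.58 (SE 0.19), while EXOC3 fell by 0.93 (SE 0.25). Without L8, the log2 fold change of EXOC6 was 0.36, and RPH3AL, RIMS3, STXBP3, NAPA, DYSF, EXOC5 and EXOC6 did not pass.

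**Figure D4:**
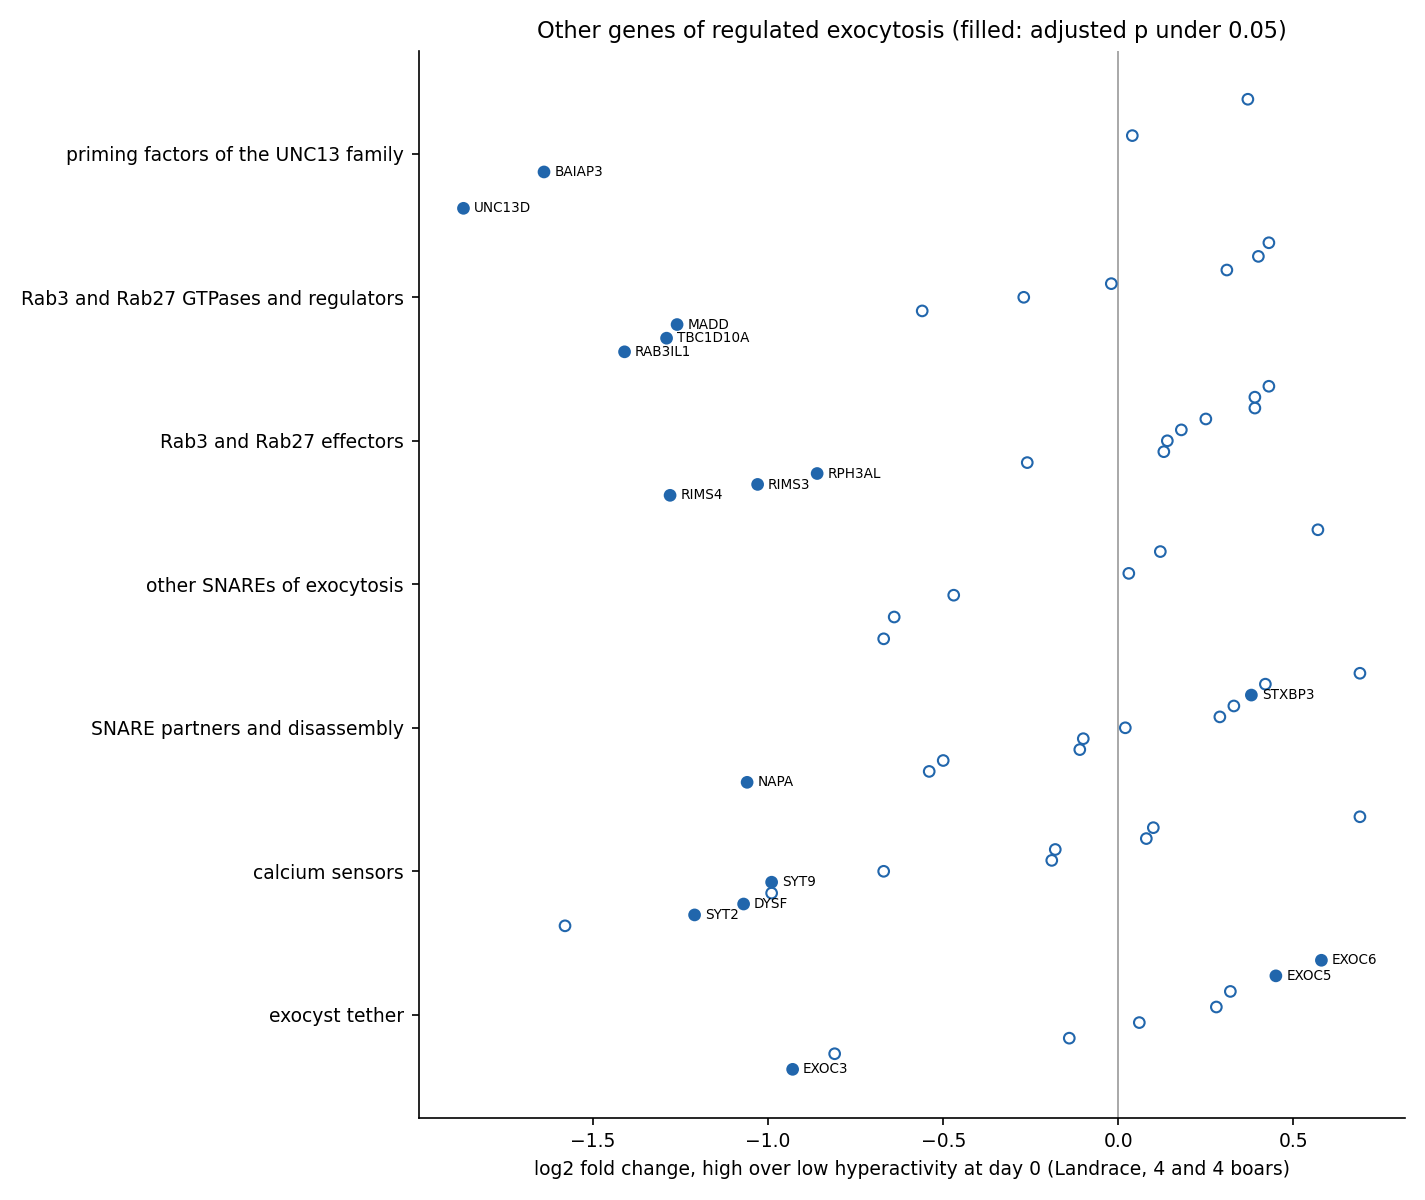
Log2 fold change in contrast (i), high over low hyperactivity, of the 60 tested genes of 7 roles in exocytosis (1 point per gene, vertical position within a role only separates points). Filled and named points passed edgeR's test at an adjusted p of 0.05, 13 of them lower, down to −1.87 for UNC13D, and 3 higher, up to 0.58 for EXOC6.

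In contrast (iii), none of the 58 tested genes of these lists passed, nor with the likelihood ratio test or DESeq2. At an unadjusted p under 0.05 there were 2 genes higher and 10 lower, where 19.8% of all 12825 genes had such a p. In contrast (ii), none of 61 passed and none had an unadjusted p under 0.05, where 1.21% of all genes had one. Between the breeds, 3 of 61 passed, or 4.92%, where 2.88% of all genes did. RPH3A, an effector of RAB3A and RAB27A on vesicles, was lower in the Duroc boars, with 14.8 to 28.0 CPM, than in the Landrace boars, with 21.9 to 50.7 CPM, a log2 fold change of −0.83 (SE 0.14, adjusted p = 0.00115 from edgeR), and it kept passing without any 1 of the 21 boars.

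The other pair of genes that passed between the breeds was closer to the threshold. SYT4, a synaptotagmin of dense-core vesicles, had a log2 fold change of 1.22 (SE 0.33, adjusted p = 0.0435 from edgeR), with 10.8 to 24.2 CPM in Duroc and 1.21 to 16.3 CPM in Landrace boars. OTOF, the calcium sensor of inner hair cells, had a log2 fold change of −1.85 (SE 0.46, adjusted p = 0.0271 from edgeR), with 0.441 to 1.21 CPM and 0.660 to 7.49 CPM. When each of the 21 boars was left out in turn, SYT4 passed in 9 fits and OTOF in 17.

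To see which genes vary together with CADPS and RAB27B, log2 CPM was correlated over the boars. In the 8 Duroc boars, 15 pairs of CADPS or RAB27B with another of the 9 genes were tested. CADPS and RAB27B had a Pearson's r of −0.23 (exact permutation p = 0.571, adjusted p = 0.714) and a Spearman's rho of −0.40 (exact permutation p = 0.327, adjusted p = 0.545) over the 8 boars. In the 13 Landrace boars, which chose the genes and fall into groups, r was 0.56, and 0.47 without L13, and is given without a test. RAB27B and RAB27A had r = −0.49 in Duroc and 0.74 in Landrace boars.

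Of the 15 pairs, RAB27B with STX2 had the strongest relation in the Duroc boars. Pearson's r was 0.74 (exact permutation p = 0.0317, adjusted p = 0.357) and Spearman's rho 0.95 (exact permutation p = 0.00114, adjusted p = 0.0171), and r was 0.79 without D3 and D4, the boars farthest from the median of RAB27B. The rank order thus passed after adjustment and the linear relation did not. The rank relation did not pass on CPM without TMM scaling, where rho was 0.57 (exact permutation p = 0.151, adjusted p = 0.567) with a prior count of 0.5 and also with the prior count of 2. With TMM scaling and a prior count of 0.5, rho was 0.95. The last pair of settings was chosen after seeing the data. Leaving out 1 boar kept rho between 0.93 and 0.96, but 4 of the 8 such fits, those without D4, D5, D6 or D9, did not pass the adjustment. In the Landrace boars, r between RAB27B and STX2 was 0.59.

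**Figure D5:**
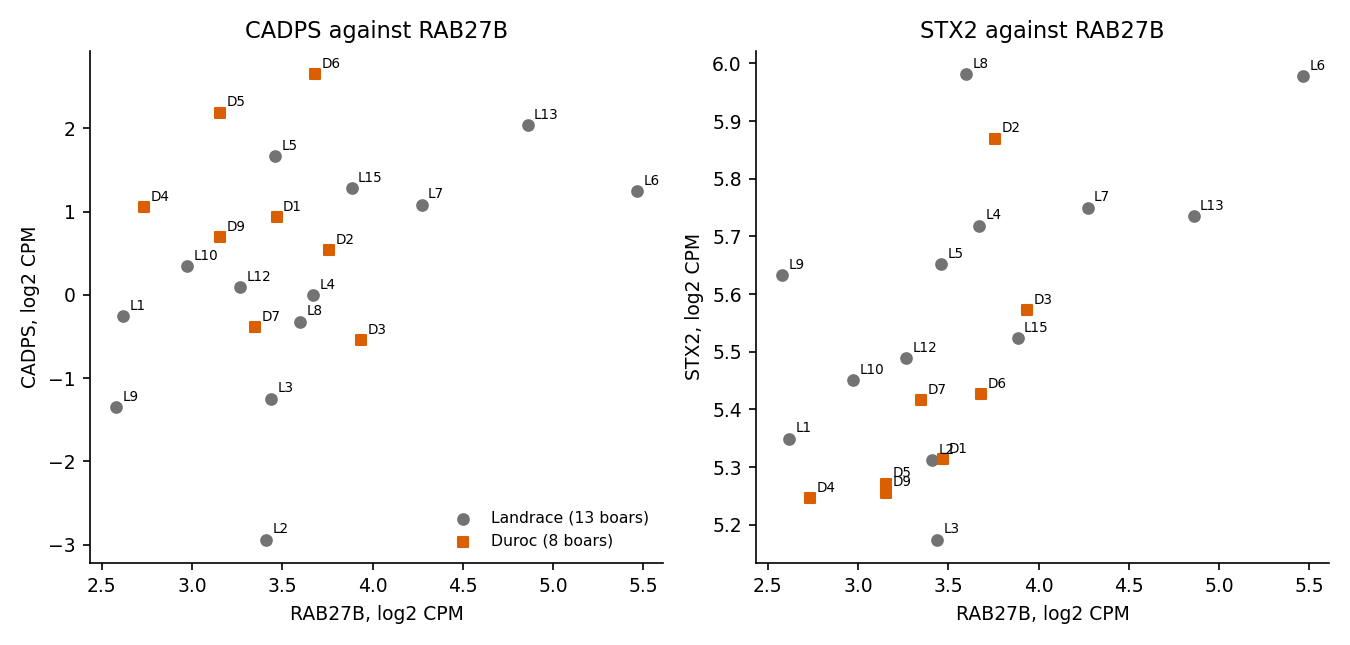
Log2 CPM of CADPS (left) and STX2 (right) against log2 CPM of RAB27B, with 1 named point per boar, grey circles for 13 Landrace and orange squares for 8 Duroc boars. STX2 and RAB27B had r = 0.74 in the Duroc boars, and CADPS and RAB27B had r = −0.23 in the Duroc and 0.56 in the Landrace boars.

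Over all 21 boars, the genes with a symbol whose log2 CPM was most like that of RAB27B were CSRNP3 (r = 0.91), ITGAV (r = 0.89), GPR155, DPY19L4 and ENPP2 (each r = 0.88), among 13126 genes compared. For CADPS, the most alike were ZNF555 (r = 0.67), GMFG (0.66), SLC26A3 (0.62), SLITRK3 (0.60) and ZNF658 (0.60), so no gene with a symbol followed CADPS as closely as these followed RAB27B. Within the breeds, CSRNP3 with RAB27B had r = 0.94 in Landrace and 0.58 in Duroc boars, and ZNF555 with CADPS had r = 0.77 and 0.59. These are descriptions over the boars, in which both genes of a pair share each boar's library depth and scaling. The genes were also ranked for their r. By the same measure STX2 stood at rank 898 and RAB27A at rank 924 for RAB27B, and RAB27B at rank 637 for CADPS.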

How the data were processed

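Per the methods of the study, RNA of whole testis was made into stranded mRNA libraries, and reads were trimmed by the authors (Trimmomatic 0.36), mapped to Sscrofa11.1 (STAR) and assigned to Ensembl genes by HTSeq in its reverse stranded setting. The deposited values are raw read counts per gene, 1 file per boar, without normalization, and 29.42 to 38.99% of the reads, which were given to no gene, were left out. Groups came from the deposited labels. The members and the gene lists were chosen with earlier results of these data known.

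The analysis used edgeR 4.0.16 in R 4.3.3 (quasi-likelihood test, TMM, Benjamini-Hochberg adjustment, threshold 0.05) on genes that reached 1 CPM in 4 or more libraries, or 8 for the breeds. The 9 members were kept whatever their level, which kept CADPS and RAB3A in contrast (i), RAB3A in contrast (iii) and between breeds, and RAB27A and RAB3A in contrast (ii). The SE was derived from the log2 fold change and its statistic. Exact permutation tests were two-sided, over 56 assignments of boars in contrast (ii) and 203490 between breeds (SciPy 1.17.1). Log2 CPM used a prior count of 2. Of the other genes, those that passed were named where at most 4 of a role did, and the 5 genes most correlated with CADPS or RAB27B. Symbols were found for 14858 identifiers, and coordinates were read from RefSeq by symbol. Boars were the replicates. In simulated data with 200 changed genes, the test called 180 in contrast (i) among 12794 genes and 163 in contrast (iii) among 12712. It called 152 in contrast (ii) among 12856 and 197 between breeds among 13034. The changes were 1 or 2 on the log2 scale, and smaller ones were not simulated. Of the changes of 1, the test called 80 of 100 in contrast (i) and 58 of 94 in contrast (iii). It called 47 of 94 in contrast (ii) and 98 of 101 between breeds. Unchanged genes called were 7, 13, 10 and 12 in the same order. Alternatives were the likelihood ratio test of the study, DESeq2 1.42.0, relative log expression factors, no CPM limit, a robust fit, 1 fit over the 13 Landrace libraries, leaving out boars, and other scalings of log2 CPM in the correlations. Sequences, exon lengths and variants were not used here.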

Additional observations from a re-analysis of the deposited data

Results flagged for a closer look

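In 45 groups of 4 to 10 boars, the highest or lowest boar of each of the 9 genes was compared with the others by Dixon's criterion, and 2 groups had a boar set apart, where chance gives about 1 in 20, or 2.25. CADPS2 was read at 30.8 CPM in L8, and at 18.1 to 20.1 CPM in the other High_d0 boars. STX2 was read at 58.4 CPM in D2, and at 37.9 to 47.6 CPM in the other 7 Duroc boars.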

How the results depend on the processing

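The log2 fold changes of the 9 genes in contrasts (i) and (iii), which carried no test, moved by less than the SD between boars in 134 of 135 fits that left out a boar and in 116 of 117 other settings. The exceptions were RAB27A in contrast (iii), at 0.89 without L13, and CADPS2 in contrast (iii), at −0.20 without L2 and L7. Where the 9 genes were tested, in contrast (ii) and between the breeds, none passed under any setting, 90 other settings kept the direction, and 31 of 261 fits that left out a boar reversed it. In contrast (ii), the log2 fold change ran from −0.93 to 0.85 for CADPS, from −0.13 to 0.22 for RAB27B, from −0.01 to 0.16 for STX2, from 0.00 to 0.13 for SNAP23 and from −0.23 to 0.22 for VAMP2. Between the breeds, it ran from −0.06 to 0.09 for CADPS2, from −0.02 to 0.16 for RAB3A, from −0.01 to 0.22 for SNAP25 and from −0.09 to 0.06 for VAMP2. The number of all genes that passed in contrast (i) was 2682, and 1 without L3 or L6 to 3761 without L5, with the other exocytosis genes running from 0 to 21. In contrast (iii), it was 0, and 66 with the likelihood ratio test, 116 with DESeq2, 1 without the CPM limit, and 0 to 1 when a boar was left out. In contrast (ii), it was 0, and 0 to 2, with 2 genes without D9. Between the breeds, it was 378, and 585 without the CPM limit, while the other exocytosis genes that passed ran from 1 to 3 without a boar. Of the fits of the 19 exocytosis genes that passed, none reversed, and 75 of 191 that left out a boar and 4 of 111 other settings no longer passed. No linear correlation in the Duroc boars passed under any setting, and several reversed. On CPM without TMM scaling and with a prior count of 0.5, r was 0.02 for CADPS with RAB27A and 0.07 for RAB27B with VAMP2. With the prior count of 2 kept, an alternative chosen after seeing the data, these were 0.01 and 0.07, and with TMM kept and a prior count of 0.5, another such alternative, none reversed. Without the 2 farthest boars, r was 0.44 for CADPS with RAB27A, 0.19 for CADPS with VAMP2, 0.60 for RAB27B with CADPS2 and −0.04 for RAB27B with SNAP25. Without 1 boar, r ran from −0.32 to 0.61 for CADPS with RAB27A, from −0.57 to 0.07 for CADPS with RAB27B, from −0.36 to 0.23 for RAB27B with CADPS2, from −0.04 to 0.50 for RAB27B with SNAP25 and from −0.26 to 0.14 for RAB27B with VAMP2. The rho of RAB27B with STX2 was 0.57 without TMM scaling at either prior count and 0.94 without the 2 farthest boars, and passed in neither. The cause of these changes was not tested. No paired analysis was possible because the groups hold different boars and their replicate numbers only follow accession order. Depth limits CADPS, with 8 reads in L2, and RAB3A, with 30 to 99 reads.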
